A study of Mus musculus with 24 samples.

Results

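The genes described here encode the eukaryotic initiation factors (eIFs) of cytoplasmic translation in mouse skin epidermis. The members are the 50 protein-coding genes of the deposited table whose symbol begins with Eif and a digit, of 17721 genes in all. The Eif2ak kinases and pseudogenes were left out. The study compared daily expression rhythms between EpiKO and wild-type (WT) epidermis. EpiKO mice carried a Bmal1 (gene symbol Arntl) knockout made with a Cre recombinase under the keratin 14 promoter, which is active in keratinocytes and not in the melanocytes and leukocytes of the same tissue. The 24 EpiKO samples were back skin epidermis of C57BL/6 males aged 8 weeks, 4 mice at each of 6 zeitgeber times (ZT) from ZT0, lights on, to ZT20. Mice were housed in 12 h of light and 12 h of dark on a chow diet, and the WT libraries are not among the samples of this series.

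Translation of most mRNAs begins when eIF2, bound to GTP and the initiator tRNA, joins the small ribosomal subunit with eIF1, eIF1A and the large scaffold eIF3. The eIF4F complex of the cap-binding protein eIF4E, the scaffold eIF4G and the helicase eIF4A brings the mRNA, and eIF4E-binding proteins block that step when the kinase mTOR is inactive. eIF5 and eIF5B complete the joining of the ribosomal subunits, and eIF2B reloads eIF2 with GTP. In epidermis, protein synthesis serves both the division of basal keratinocytes and the large output of keratins. Many mRNAs of the translation machinery begin with a cytosine followed by a run of pyrimidines, the terminal oligopyrimidine (TOP) tract, through which mTOR controls their translation.

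All values come from the rhythm fit that the authors deposited. For each gene, 5 models were weighed: no rhythm, a rhythm in EpiKO only, in WT only, the same rhythm in both, or different rhythms in both. A weight runs from 0 to 1, sums to 1 over the models of a gene and is not a p-value. A gene was assigned to a class when the largest weight was at least 0.5. Fold values are peak over trough of the fitted cosine curve and describe a daily swing, whereas mean levels and their differences are log2 values. Values of single libraries are not in the table. Depth is therefore unknown, and neither the spread between animals nor a test across samples can be given. Genotype and any difference in how the EpiKO and WT libraries were made cannot be told apart.

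The targeted gene and other clock genes were checked first. Arntl itself had no assigned rhythm in EpiKO, against a 4.65-fold swing in WT, per the authors' deposited table. Its log2 mean was not lower, at 9.65 in EpiKO, against 9.50 in WT, per the authors' deposited table. Dbp, a direct target of the BMAL1 protein, had a log2 mean of 6.60 in EpiKO, against 9.09 in WT, per the authors' deposited table. Nr1d1, the REV-ERB alpha gene, had a log2 mean of 6.71 in EpiKO, against 10.89 in WT, per the authors' deposited table. Nr1d1 was assigned different rhythms, 3.08-fold with a peak at ZT1.69 in EpiKO and 17.2-fold at ZT7.50 in WT, per the authors' deposited table.

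Initiation factor genes were in the same-rhythm class more often than all genes, and in the class without a rhythm less often. Of the 50 members 19 were assigned the same rhythm in EpiKO and WT, or 38.0%, against 16.7% of all genes. A rhythm in EpiKO only was assigned to 1 member (4.31% of all genes), a rhythm in WT only to 3 (8.41% of all genes) and different rhythms to 3 (2.65% of all genes). No rhythm was assigned to 17 members (56.7% of all genes), and 7 had no model at the limit (11.3% of all genes). Ribosomal protein genes were in the same-rhythm class in 53 of 80 cases, and 20 ribosome biogenesis genes in 14. The difference between these shares was not tested.

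**Figure D1:**
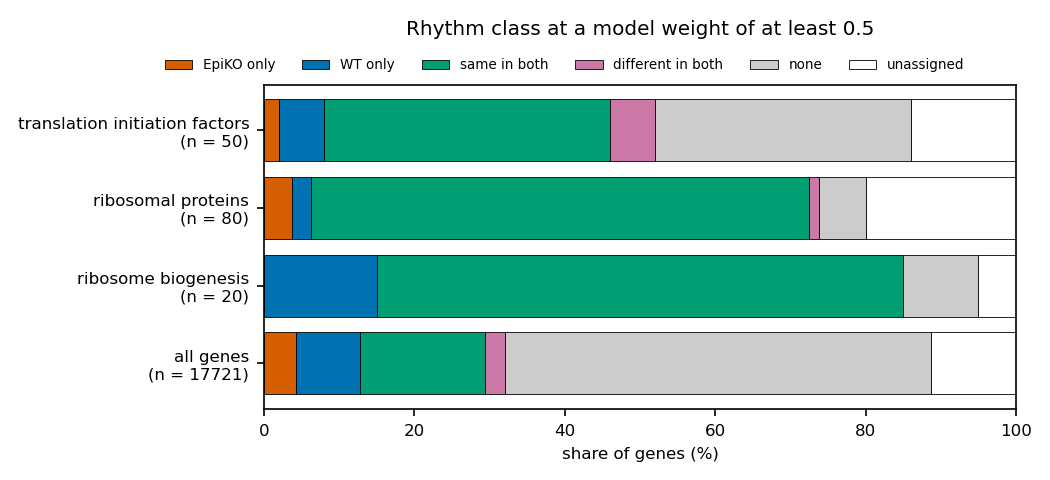
Share of genes (%, horizontal axis) in each rhythm class for the 50 initiation factor genes, 80 ribosomal protein genes, 20 ribosome biogenesis genes and all 17721 genes of the authors' deposited table. The same-rhythm class holds 38.0% of the initiation factor genes and 16.7% of all genes.

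Adding the weights of all models with a rhythm in a genotype gives a reading that needs no choice of class. This sum was at least 0.9 in EpiKO for 19 members (14.2% of all genes) and in WT for 18 members (20.2% of all genes). Its median over the members was 0.519 in EpiKO and 0.687 in WT, against 0.181 in EpiKO and 0.213 in WT over all genes.

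The daily swings were small. Over members assigned a rhythm in that genotype, the median fold was 1.19 in EpiKO (23 members) and 1.17 in WT (25 members). The same measure over all genes was 1.28 in EpiKO and 1.29 in WT. Genes with a shared rhythm have a single fitted curve and enter both medians with the same value. The closeness of the genotypes is therefore partly set by the model. The largest swing of a member was 1.57-fold in EpiKO, by Eif4e3, and 2.05-fold in WT, by Eif5a2, per the authors' deposited table.

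**Figure D2:**
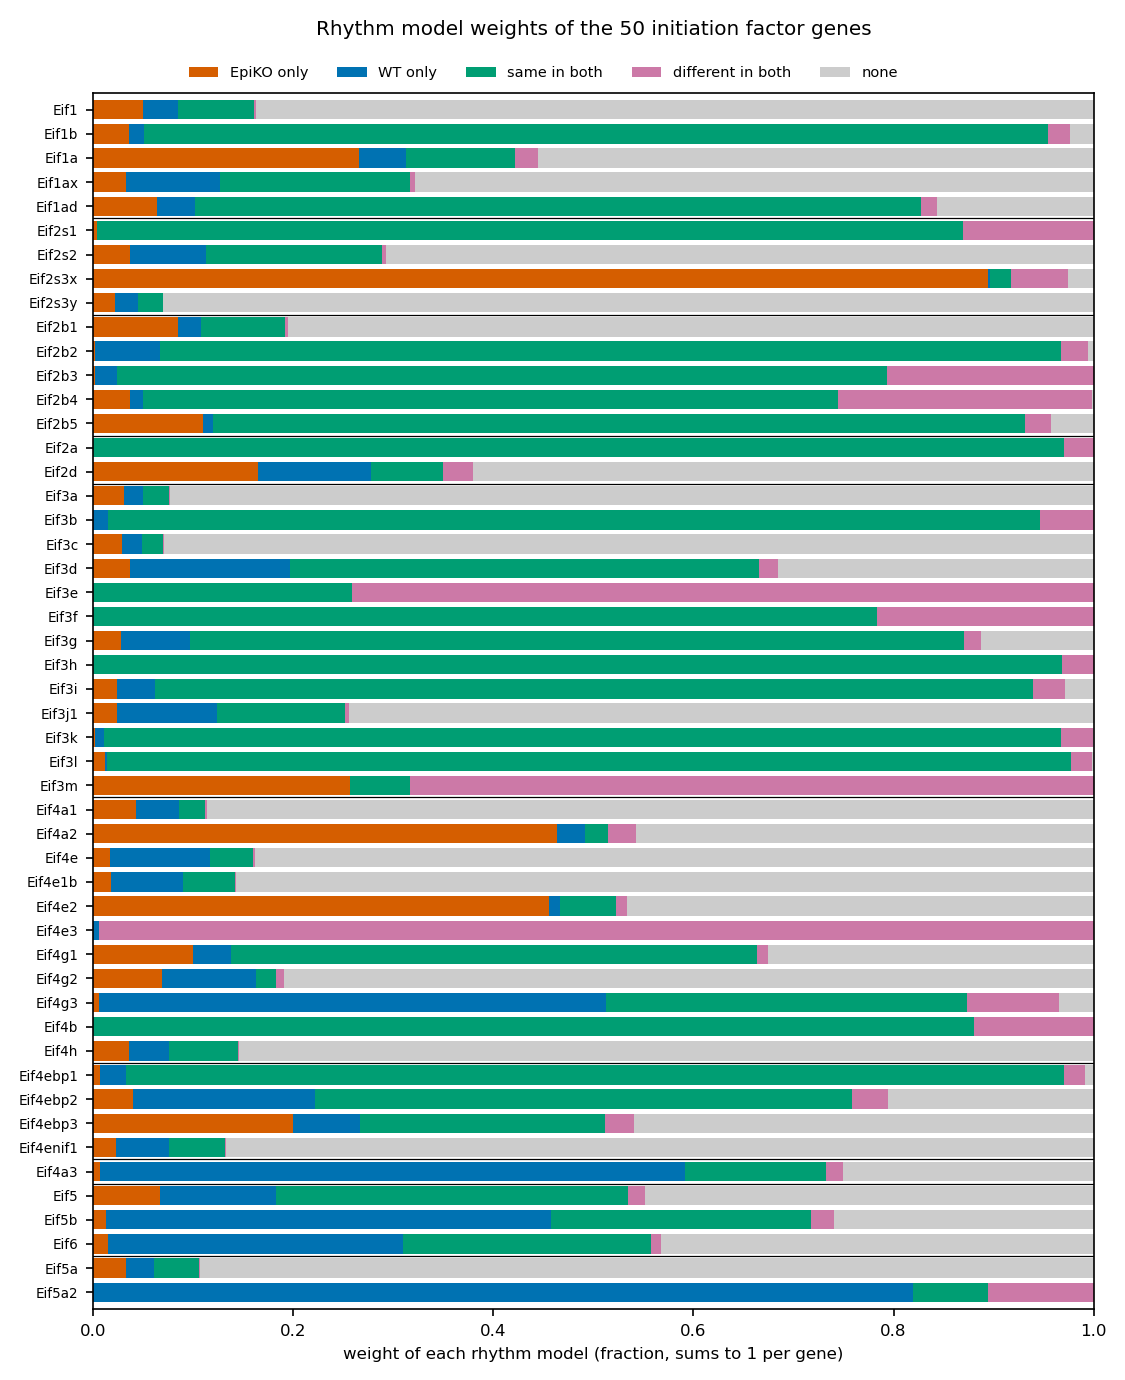
Weight of each rhythm model (fraction, horizontal axis) for each of the 50 initiation factor genes, from the authors' deposited table; black lines separate the complexes. Green bars of the same-rhythm model dominate in eIF2B and most eIF3 subunits, grey bars of no rhythm in eIF4A1, eIF4E, eIF4H and eIF5A, and Eif2s3x, Eif5a2 and Eif4e3 each stand out with another model.

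The 19 members with a shared rhythm fell into groups with an earlier and a later peak. Per the authors' deposited table, 9 peaked between ZT8.63 and ZT12.8, around the change from light to dark, with a mean of ZT11.0. The other 10 peaked between ZT15.0 and ZT18.9, in the dark, with a mean of ZT17.2. No shared peak lay in the 2.19 h between these groups, or between ZT20 and ZT8. Of all 2954 genes with a shared rhythm, 21.6% peaked from ZT8 to ZT14 and 34.4% from ZT14 to ZT20.

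The early group held Eif2a, Eif4b, Eif4ebp2, Eif3l, Eif3h, Eif3f, Eif3k, Eif3i and Eif4ebp1, in order of peak time. The late group held Eif3g, Eif2b4, Eif1b, Eif2b2, Eif3b, Eif4g1, Eif2b3, Eif1ad, Eif2s1 and Eif2b5. The early group overlapped ribosomal protein genes in peak time. All 53 of the latter with a shared rhythm peaked between ZT10.1 and ZT13.2, with a mean of ZT11.9. Eif2a (ZT8.63) and Eif4b (ZT9.03) peaked before that range. The late group overlapped 12 of the 14 ribosome biogenesis genes with a shared rhythm, which peaked from ZT16 to ZT18.4. The mean over all 14 was ZT16.7. Eif3g (ZT15.0) and Eif2b4 (ZT15.3) peaked before these 12 genes, and Eif2s1 (ZT18.5) and Eif2b5 (ZT18.9) after them. Median swings were 1.19-fold in the early group, 1.16-fold in the late group, 1.17-fold in ribosomal protein genes and 1.27-fold in ribosome biogenesis genes. The groups were drawn at the widest gap after the peak times were seen, so they are a description.

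**Figure D3:**
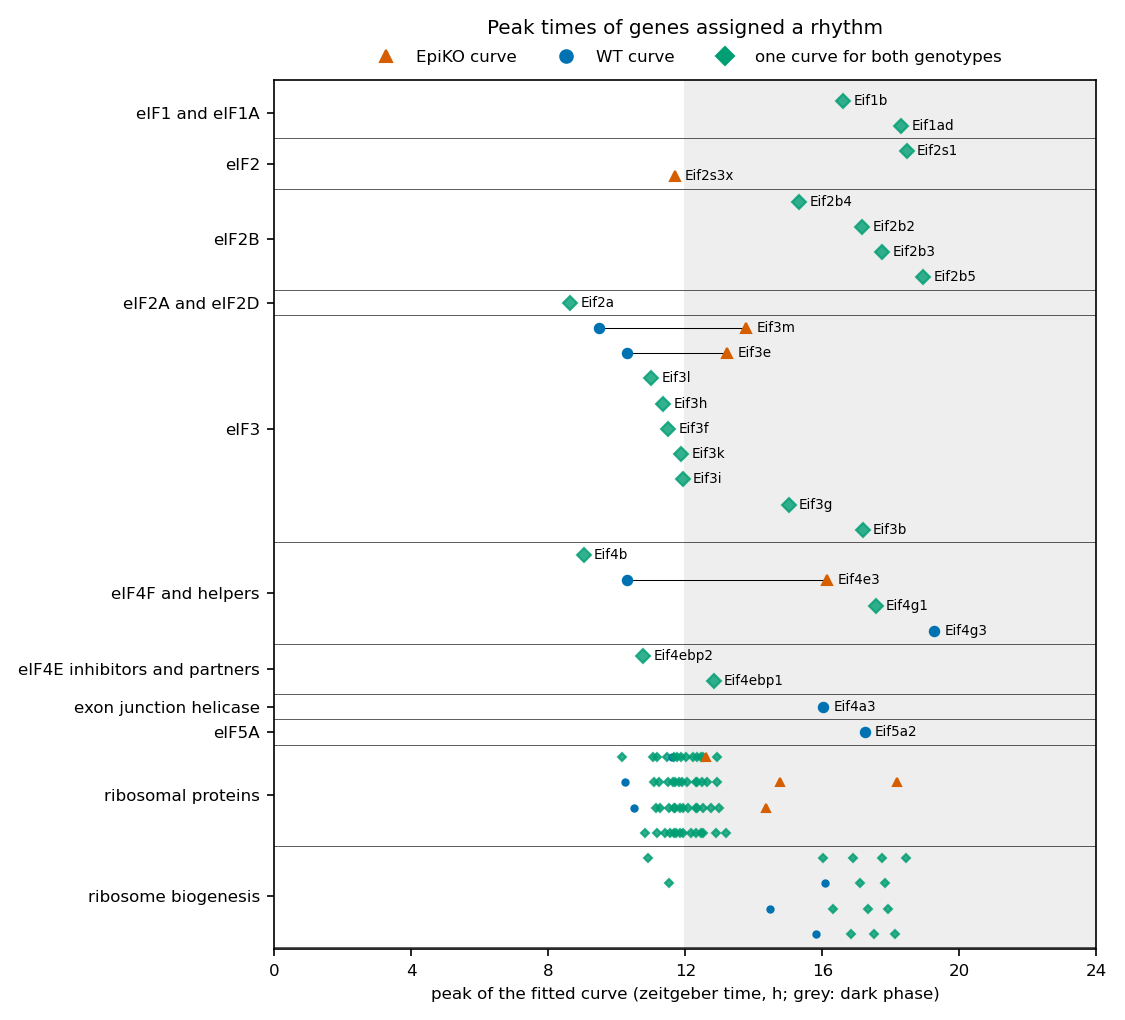
Peak of the fitted curve (zeitgeber time in h, horizontal axis; grey, dark phase) for the 26 initiation factor genes assigned a rhythm, by complex, with ribosomal protein and ribosome biogenesis genes at the bottom, from the authors' deposited table. Triangles are EpiKO curves, circles WT curves and diamonds curves shared by both; the diamonds of the eIF2B subunits lie late (ZT15.3 to ZT18.9) and those of most eIF3 subunits around ZT11 to ZT12.

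eIF3 was the complex with the most members. Of 13 genes 7 had a shared rhythm (16.7% of all genes), 2 different rhythms (2.65%) and 3 none (56.7%). Eif3d was left unassigned with a largest weight of 0.469 for the shared rhythm per the authors' deposited table. In mammals, subunits a, c, e, f, h, k, l and m form the structural octamer of the complex. Of these 8 genes, grouped so after the values were seen, 6 were assigned a rhythm (32.0% of all genes), with peaks between ZT11.0 and ZT13.8 in EpiKO and between ZT9.48 and ZT11.9 in WT. Eif3a and Eif3c, the large subunits on which the octamer is built, were assigned no rhythm with weights of 0.923 and 0.929 per the authors' deposited table.

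Eif3f (ENSMUSG00000031029; chromosome 7, 108934417 to 108942951, mm10) had the largest shared swing of the octamer genes, 1.27-fold with a peak at ZT11.5, per the authors' deposited table. Its fitted level was 12.46, 12.56, 12.73, 12.80, 12.70 and 12.53 (log2) at ZT0, 4, 8, 12, 16 and 20 in both genotypes. It was lowest at lights on and highest at lights off. Eif3h swung 1.19-fold with a peak at ZT11.4, Eif3k 1.17-fold at ZT11.9 and Eif3l 1.11-fold at ZT11.0, with weights of 0.968, 0.956 and 0.963 for the shared rhythm per the authors' deposited table. For Eif3f that weight was 0.784, and the remaining 0.216 lay on different rhythms.

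The octamer genes Eif3e and Eif3m peaked later in EpiKO. Eif3e (chromosome 15, 43250058 to 43282719, mm10) peaked at ZT13.2 with 1.37-fold in EpiKO and at ZT10.3 with 1.27-fold in WT, per the authors' deposited table. Fitted levels of Eif3e at ZT0, 4, 8, 12, 16 and 20 were 11.69, 11.73, 11.95, 12.12, 12.07 and 11.86 (log2) in EpiKO. They were 11.75, 11.89, 12.05, 12.06, 11.92 and 11.76 (log2) in WT. The curves crossed between ZT8 and ZT12 and again between ZT20 and ZT0. Eif3m (chromosome 2, 104999656 to 105017080, mm10) peaked at ZT13.8 with 1.29-fold in EpiKO and at ZT9.48 with 1.15-fold in WT, per the authors' deposited table. The shift was 2.93 h for Eif3e and 4.29 h for Eif3m. For Eif3e the shared rhythm kept a weight of 0.259, and for Eif3m a rhythm in EpiKO only kept 0.257, per the authors' deposited table.

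Outside the octamer, Eif3i of the eIF3 core peaked with the octamer genes at ZT11.9 (1.12-fold), per the authors' deposited table. Eif3g, which encodes an RNA-binding subunit, peaked at ZT15.0 (1.11-fold), and Eif3b, the platform for the i and g subunits, at ZT17.2 (1.15-fold), per the authors' deposited table. Eif3j1, a loosely bound subunit, had no rhythm with a weight of 0.745 per the authors' deposited table. The eIF3 genes thus did not share a single peak time.

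**Figure D4:**
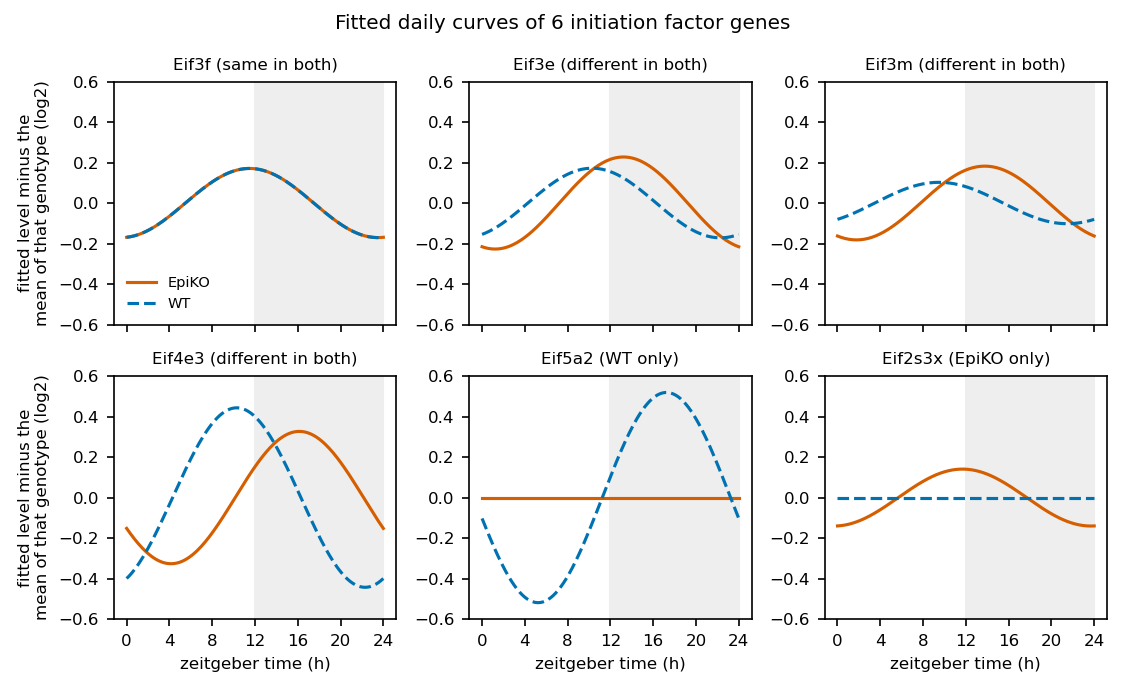
Fitted curves of 6 initiation factor genes over zeitgeber time (h; grey, dark phase), drawn from the coefficients of the authors' deposited table as the level minus the mean of that genotype (log2), EpiKO solid and WT dashed. Eif3f has 1 curve for both, the EpiKO peaks of Eif3e, Eif3m and Eif4e3 lie 2.93, 4.29 and 5.86 h later than the WT ones, Eif5a2 swings in WT and Eif2s3x in EpiKO.

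Sequence around the annotated start is shown for rhythmic eIF3 genes, Eif4b and Eif2a because the TOP tract is a known feature of Eif3e, Eif3f and Eif3h. Each line holds 15 bases before and 15 bases from the start of the gene as RefSeq annotates it (GRCm38.p6), written along the gene's strand. Capitals mark the run of pyrimidines that begins at the first base, where there is one.
Eif3f: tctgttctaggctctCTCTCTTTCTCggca
Eif3l: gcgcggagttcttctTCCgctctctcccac
Eif3k: aaaacaaccggcgctggtgctgaaagcgcc
Eif3m: ttttccggtcggcgtgtttctggatcggag
Eif4b: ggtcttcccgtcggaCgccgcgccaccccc
Eif2a: gtgtggactccgcccgctccggagagggag
Eif3g: tctttacccgggctgggagctgcgtggagt
Eif3b: ctagcggcgcgcggtgacttctgggagtcg
The Eif3f line comes from chr7:108934400-108934429, plus strand, and the Eif3l line from chr15:79075208-79075237, plus strand. Eif3f starts with a cytosine and has 11 pyrimidines in a row. A gene counted when any of its annotated starts began with C in a run of at least 5 pyrimidines. This was listed for 2 of 39 members with a RefSeq entry, Eif3f and Eif2s3x. This was the case for 3.07% of 13582 genes of the table and for 13 of 60 ribosomal protein genes. Annotated starts can miss the start that the cells use by a few bases. Eif1a, Eif2b3, Eif3e, Eif3h, Eif3i, Eif4e1b, Eif4e3, Eif4ebp1, Eif4ebp3, Eif4g2 and Eif6 had no entry.

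Of the 5 eIF2B genes 4 had a shared rhythm (16.7% of all genes), each with a late peak. eIF2B is the exchange factor that recharges eIF2. Eif2b2, Eif2b3, Eif2b4 and Eif2b5 shared a rhythm between genotypes, with peaks at ZT17.2, ZT17.7, ZT15.3 and ZT18.9 per the authors' deposited table. Their swings were 1.16-fold, 1.23-fold, 1.16-fold and 1.10-fold per the authors' deposited table. Fitted levels of Eif2b3 at ZT0, 4, 8, 12, 16 and 20 were 8.24, 8.11, 8.12, 8.26, 8.39 and 8.38 (log2) in EpiKO. They were 8.05, 7.93, 7.94, 8.08, 8.20 and 8.19 (log2) in WT, the same curve at a lower mean. Eif2b1, which encodes the alpha subunit that completes the assembled complex, had no rhythm with a weight of 0.806 per the authors' deposited table.

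Subunits of eIF2 itself differed from one another. Eif2s1, whose product is phosphorylated under stress, had a shared 1.19-fold rhythm with a peak at ZT18.5 and a weight of 0.865 per the authors' deposited table. Eif2s2 had none (weight 0.707) per the authors' deposited table. Eif2s3x, the X-linked gene of the tRNA-binding subunit (chromosome X, 94188707 to 94212862, mm10), was the single member assigned a rhythm in EpiKO only. It swung 1.22-fold with a peak at ZT11.7 and a weight of 0.895 per the authors' deposited table. Fitted levels in EpiKO were 9.11, 9.19, 9.33, 9.39, 9.31 and 9.17 (log2) from ZT0 to ZT20, against a flat 11.59 in WT. Its Y-linked paralog Eif2s3y had no rhythm (weight 0.930) per the authors' deposited table. Eif2a, a factor that can deliver initiator tRNA without eIF2, had the largest shared swing of all members, 1.28-fold with a peak at ZT8.63 and a weight of 0.970, per the authors' deposited table. Eif2d, another such factor, had no rhythm (weight 0.620) per the authors' deposited table.

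Among genes grouped by name with eIF1 and eIF1A, Eif1b and Eif1ad each had a shared curve. Eif1b peaked at ZT16.6 (1.22-fold, weight 0.903) and Eif1ad at ZT18.3 (1.18-fold, weight 0.725), per the authors' deposited table. Eif1, Eif1a and Eif1ax, which act in start codon selection, had no rhythm, with weights of 0.837, 0.556 and 0.679 per the authors' deposited table.

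Genes of the cap-binding arm were divided. The core genes Eif4e and Eif4a1 had no rhythm (weights 0.838 and 0.886), nor had Eif4h, a helper of the helicase (0.854), or Eif4g2, a scaffold that does not bind eIF4E (0.809), per the authors' deposited table. Eif4b, the other helper of the helicase, had a shared 1.26-fold rhythm with a peak at ZT9.03 and a weight of 0.880 per the authors' deposited table. Its fitted level was lowest at ZT20, at 13.14, and highest at ZT8, at 13.46 (log2), in both genotypes. Eif4g1, the main scaffold, had a shared 1.09-fold rhythm with a peak at ZT17.6, but its weight of 0.525 per the authors' deposited table was close to the limit. Its paralog Eif4g3 was assigned a rhythm in WT only (1.17-fold, ZT19.3), and with a weight of 0.506, against 0.361 for the shared rhythm, this call was equally close per the authors' deposited table. Eif4a2 and Eif4e2 lay between no rhythm and a rhythm in EpiKO only, with 0.457 and 0.464 for Eif4a2 and 0.466 and 0.455 for Eif4e2 on these models per the authors' deposited table.

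Eif4e3, an atypical cap-binding paralog of eIF4E (chromosome 6, 99625135 to 99666771, mm10), had the clearest difference in rhythm, with a weight of 0.994 per the authors' deposited table. It peaked at ZT16.1 with 1.57-fold in EpiKO and at ZT10.3 with 1.85-fold in WT, 5.86 h later in EpiKO, per the authors' deposited table. Fitted levels at ZT0, 4, 8, 12, 16 and 20 were 7.79, 7.62, 7.77, 8.10, 8.27 and 8.12 (log2) in EpiKO. They were 8.46, 8.83, 9.23, 9.26, 8.90 and 8.50 (log2) in WT. EpiKO was lower at each of the 6 times. Of these times it was lowest at ZT4 and highest at ZT16, against lowest at ZT0 and highest at ZT12 in WT. Eif4e1b, an oocyte paralog, had a log2 mean of -2.41 in EpiKO, against 1.84 in WT, low in both, per the authors' deposited table.

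Eif4ebp1 (4E-BP1) had a shared 1.23-fold rhythm with a peak at ZT12.8 and a weight of 0.938, and Eif4ebp2 a shared 1.12-fold rhythm at ZT10.8 with a weight of 0.537, per the authors' deposited table. Eif4ebp3 was unassigned, and Eif4enif1, which carries eIF4E into the nucleus, had no rhythm (weight 0.867) per the authors' deposited table. Eif4a3, a helicase of the exon junction complex and not of initiation, was assigned a 1.13-fold rhythm in WT only with a peak at ZT16.0 and a weight of 0.585 per the authors' deposited table. Eif5, Eif5b and Eif6, the last a factor that keeps the ribosomal subunits apart, had no model at the limit, with largest weights of 0.448, 0.444 and 0.432 per the authors' deposited table.

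Eif5a2 was the one member with a large swing that was assigned to WT alone. It is the less widely expressed paralog of eIF5A, a factor that carries the amino acid hypusine and helps ribosomes past difficult sequences. Eif5a2 (ENSMUSG00000050192; chromosome 3, 28781276 to 28798846, mm10) had no rhythm in EpiKO and a 2.05-fold swing with a peak at ZT17.2 in WT, with a weight of 0.819, per the authors' deposited table. Its fitted level stood at 7.21 in EpiKO, against 6.71, 6.32, 6.42, 6.91, 7.30 and 7.20 (log2) at ZT0, 4, 8, 12, 16 and 20 in WT. The flat level in EpiKO was close to the top of the WT curve. Different rhythms kept a weight of 0.106, and Eif5a itself had no rhythm with a weight of 0.893, per the authors' deposited table.

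Promoters of rhythmic members with a perfect E-box are shown because that motif is the site bound by CLOCK and BMAL1, and also by MYC. The first 4 belong to genes assigned the same rhythm in EpiKO and WT. For Eif4g1 that call was close to the limit, with a weight of 0.525, against 0.325 for no rhythm. The last, Eif5a2, was assigned a rhythm in WT only. The 5 members with an E-box that were assigned no rhythm, named below, are not shown. Each line holds the 250 bases before the start as RefSeq annotates it (GRCm38.p6), along the gene's strand, with the E-box CACGTG in capitals.
Eif3f: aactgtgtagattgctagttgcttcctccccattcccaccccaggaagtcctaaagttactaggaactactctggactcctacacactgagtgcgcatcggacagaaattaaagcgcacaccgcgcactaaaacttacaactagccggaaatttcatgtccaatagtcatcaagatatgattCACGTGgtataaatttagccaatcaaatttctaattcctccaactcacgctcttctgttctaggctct
Eif3k: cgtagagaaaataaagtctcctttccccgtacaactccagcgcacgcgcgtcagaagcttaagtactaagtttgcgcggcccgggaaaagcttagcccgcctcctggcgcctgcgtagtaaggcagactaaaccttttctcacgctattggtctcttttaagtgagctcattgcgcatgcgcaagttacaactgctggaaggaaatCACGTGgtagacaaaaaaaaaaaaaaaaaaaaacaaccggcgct
Eif1b: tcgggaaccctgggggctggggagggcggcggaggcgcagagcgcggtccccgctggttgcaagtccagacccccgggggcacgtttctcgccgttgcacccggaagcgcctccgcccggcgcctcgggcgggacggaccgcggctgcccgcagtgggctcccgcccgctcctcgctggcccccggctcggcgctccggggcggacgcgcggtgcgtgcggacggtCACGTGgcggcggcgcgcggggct
Eif4g1: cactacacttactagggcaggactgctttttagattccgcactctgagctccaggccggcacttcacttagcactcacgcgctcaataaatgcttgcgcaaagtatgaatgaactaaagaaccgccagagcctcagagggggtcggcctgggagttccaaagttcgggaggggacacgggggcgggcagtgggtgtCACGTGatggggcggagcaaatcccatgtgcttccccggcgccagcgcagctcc
Eif5a2: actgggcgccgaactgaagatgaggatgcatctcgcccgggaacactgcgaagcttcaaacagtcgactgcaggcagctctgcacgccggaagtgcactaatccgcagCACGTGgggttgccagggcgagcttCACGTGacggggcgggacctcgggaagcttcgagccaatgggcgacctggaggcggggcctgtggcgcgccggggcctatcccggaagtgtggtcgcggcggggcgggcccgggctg
These regions are chr7:108934165-108934414, plus strand, for Eif3f, chr7:28981889-28982138, minus strand, for Eif3k, and chr9:120492356-120492605, plus strand, for Eif1b. Those of Eif4g1 and Eif5a2 are chr16:20672477-20672726, plus strand, and chr3:28781027-28781276, plus strand. Counted from the start, the E-box begins at -68 in Eif3f, -44 in Eif3k, -24 in Eif1b and -54 in Eif4g1. Eif5a2 has one at -142 and another at -117. A second E-box of Eif4g1 begins at 16, after the start and beyond the bases shown.

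In the windows of 300 bases from 250 before to 50 after the start, searched on both strands, CACGTG was found in 10 of 39 members, or 25.6%, and in 10.5% of 13582 genes of the table. Members assigned no rhythm held it in 5 of 14 cases (Eif3a, Eif4a1, Eif4e, Eif4h and Eif5a), members with an early shared peak in 2 of 6, and members with a late shared peak in 2 of 9. The ETS core CCGGAAGT was found in 7 members (17.9%; 7.19% of all genes). The letters TGACGTCA, of the cyclic AMP response element, were found in 0 members (3.08% of all genes), TGATGNAA, of the amino acid response element, in 1 (3.07%), and the NRF1-type motif in 1 (1.83%). The last 2 hits were in Eif2s3x and Eif3k. A gene counted when any of its annotated windows held the letters, and the number of windows per gene was not adjusted for. A match is a description of letters and not of binding.

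Mean levels differed between genotypes in both directions. Of the 50 members 21 were assigned a higher mean in EpiKO (32.7% of all genes), 19 a lower one (37.4% of all genes) and 10 the same (29.9% of all genes), per the authors' deposited table. The median difference over the members and over all genes was 0.00 (log2). Genes assigned the same mean have a difference of exactly 0.00 in the fit, and they hold the middle rank in both sets. The median is thus set by that class. Over all genes with different means it was -0.14 (log2). At a difference of at least 1 (log2), 2 members were higher (4.53% of all genes) and 5 lower (16.8% of all genes).

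The largest higher means belonged to Eif4ebp2, with a log2 mean of 11.96 in EpiKO, against 10.63 in WT, and Eif1ax, with 10.99 in EpiKO, against 9.91 in WT, per the authors' deposited table. Eif3i (0.51), Eif2s3y (0.41), Eif6 (0.40) and Eif5a2 (0.40) followed, as EpiKO minus WT in log2, and the mean of Eif2s3y was assigned as different with a weight of only 0.525, per the authors' deposited table. The lowest in EpiKO relative to WT was Eif4ebp3, with a log2 mean of 3.33 in EpiKO, against 7.92 in WT, per the authors' deposited table. Eif4e1b (-4.25), Eif2s3x (-2.34), Eif3j1 (-2.04), Eif1 (-1.27) and Eif4a1 (-0.97) followed, as EpiKO minus WT in log2, per the authors' deposited table. The paralogs Eif1b and Eif4ebp1 differed by 0.23 and -0.21, on the same scale per the authors' deposited table. Eif1a and Eif4a2 were assigned the same mean in both genotypes, with weights of 0.772 and 0.619 per the authors' deposited table.

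The share of a gene's 51-base windows, the read length of the EpiKO libraries, that also occur in transcripts of another gene was 65.4% for Eif4ebp3, 50.7% for Eif3j1, 34.6% for Eif2s3x, 28.3% for Eif4a1 and 19.03% for Eif1. It was 4.07% for Eif4e1b. Of the 20 members with over 5% of windows shared, 12 were lower in EpiKO and 4 higher, and of the 30 others 7 were lower and 17 higher. Over all genes, 2857 of 4835 with over 5% shared were lower in EpiKO and 949 higher, and of the 12885 others 3771 were lower and 4848 higher. The lower members with shared windows were thus near the share over all genes. Of the 80 ribosomal protein genes compared above, 74 had over 5% shared, as had 6 of the 20 ribosome biogenesis genes. In EpiKO 69 of the 80 were lower and 8 higher, with a median difference of -1.45 (log2). The 3 members with different rhythms had shares of 5.54% (Eif3e), 18.0% (Eif3m) and 12.3% (Eif4e3), and Eif2s3x belongs here too. The read length and counting of the WT libraries are not given in the sources used here, and the part of shared sequence in these differences was not tested.

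**Figure D5:**
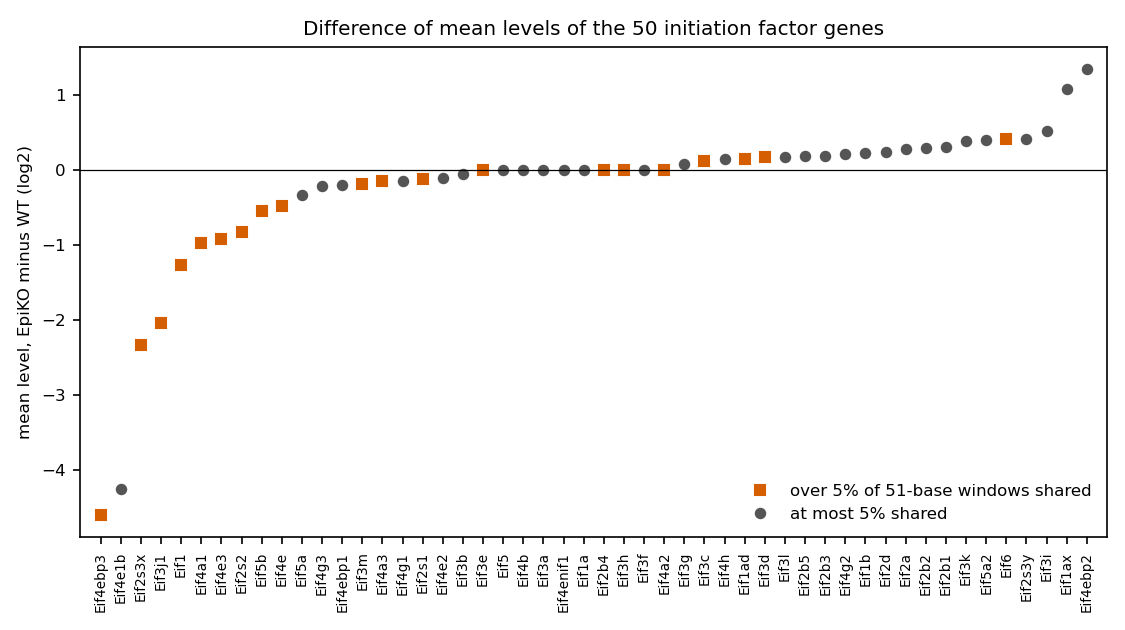
Mean level in EpiKO minus WT (log2, vertical axis) of the 50 initiation factor genes in order of the difference, from the authors' deposited table; orange squares are genes with over 5% of 51-base windows found in another gene. Of the 6 genes furthest below 0, 5 are orange squares, and of the 6 furthest above 0, 1 is.

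Marker genes checked the tissue label. The keratin genes Krt5 and Krt10 were abundant. Krt5 had a log2 mean of 17.73 in EpiKO, against 17.82 in WT, per the authors' deposited table. Krt10 had 17.48 in EpiKO, against 17.76 in WT, per the authors' deposited table. Of 32 marker entries in 9 lists 30 were in the table, all but Flg (suprabasal) and Trdc (leukocytes). Summed levels of a list in EpiKO and WT (log2) were 18.45 and 18.49 for basal and 18.04 and 18.30 for suprabasal keratinocytes, 16.88 and 16.89 for hair follicle (4 genes), 8.43 and 8.57 for melanocytes, 9.10 and 8.21 for leukocytes, and 9.62 and 9.38 for fibroblasts. They were 3.61 in EpiKO and 2.97 in WT for endothelial and -0.90 in both for adipocyte genes. The suprabasal sums were set by Krt10 and Krt1 (16.40 in EpiKO, 16.59 in WT), per the authors' deposited table. Ivl of that list was higher in EpiKO (10.16, against 9.70 in WT), and Lor was assigned the same mean of 8.68 in both. The hair follicle sums were set by the abundant Krt15 and Krt79, assigned the same mean in both genotypes, whereas Lgr5 (-1.87) and Sox9 (-1.03) were lower, as EpiKO minus WT in log2, per the authors' deposited table. Muscle genes summed to 2.64 in EpiKO and 9.90 in WT. That difference came from Acta1, the actin of skeletal muscle, at 2.21 in EpiKO and 9.90 in WT, while Ckm was assigned the same low mean of 0.68 in both, per the authors' deposited table. The part of other cells in the mean differences above was not tested. In such bulk samples fewer cells of a type and less RNA per cell cannot be told apart.

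The elongation list has 8 genes and also holds the kinase gene Eef2k and Eef1e1, a component of the aminoacyl-tRNA synthetase complex. Of the 8 genes 5 shared a rhythm (16.7% of all genes), 1 was rhythmic in WT only (8.41%) and 2 had none (56.7%). Eef2, which moves the ribosome along, swung 1.28-fold with a peak at ZT10.8 and Eef1a1, which brings in tRNAs, 1.22-fold at ZT10.7, each with a shared curve per the authors' deposited table. Eef1e1 peaked at ZT17.9 (1.25-fold) per the authors' deposited table. Eef2k, the kinase that inhibits eEF2, had a 1.39-fold rhythm at ZT11.6 in WT and none in EpiKO, with a weight of 0.97 per the authors' deposited table.

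Of 4 termination and recycling genes 2 had a shared rhythm (16.7% of all genes). Abce1, which splits ribosomes after termination, swung 1.37-fold at ZT17.8 and Gspt1, the release factor eRF3a, 1.19-fold at ZT18.4, with shared curves per the authors' deposited table. Etf1 was unassigned and Gspt2 had no rhythm.

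Of 8 genes that signal to eIF2, 3 were assigned a rhythm (32.0% of all genes), 2 of these in EpiKO only (4.31%). Another 4 had none (56.7%) and 1 was unassigned (11.3%). Those without a rhythm included Atf4, a transcription factor made when eIF2 is phosphorylated, with a weight of 0.87 per the authors' deposited table. Eif2ak3 (PERK), the eIF2 kinase of the endoplasmic reticulum, had a rhythm in EpiKO only, 1.301-fold with a peak at ZT1.49 and a weight of 0.91, per the authors' deposited table. Ddit3, a gene induced downstream of ATF4, had a rhythm in EpiKO only as well, 1.27-fold at ZT0.88 with a weight of 0.66, per the authors' deposited table. Eif2ak2 had a shared 1.14-fold rhythm at ZT5.61 per the authors' deposited table.

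Of 16 genes that signal to the cap-binding complex, 5 shared a rhythm (16.7% of all genes) and 2 were rhythmic in WT only (8.41%). Another 7 had none (56.7%) and 2 were unassigned (11.3%). Deptor, an inhibitor of mTOR, had a shared 1.81-fold rhythm at ZT11.2, and Sesn1, another, a shared 1.41-fold rhythm at ZT10.2, per the authors' deposited table. Both calls were close to the limit, with 0.541 for the shared and 0.459 for different rhythms in Deptor, and 0.563 for the shared rhythm and 0.383 for WT only in Sesn1, per the authors' deposited table. Ddit4 (REDD1), which restrains mTOR, and Mknk2, a kinase of eIF4E, were assigned a rhythm in WT only, 1.71-fold at ZT9.42 and 1.66-fold at ZT10.3, with weights of 0.84 and 0.51 per the authors' deposited table. The call of Mknk2 was close, as different rhythms held 0.488, per the authors' deposited table. Mtor, Rptor and Larp1, the protein that binds TOP tracts, had no rhythm, with weights of 0.87, 0.94 and 0.69 per the authors' deposited table.

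Of 11 auxiliary factors 4 shared a rhythm (16.7% of all genes), 1 had different rhythms (2.65%) and 1 was rhythmic in WT only (8.41%). Another 3 had none (56.7%) and 2 were unassigned (11.3%). Dhx29, a helicase of the scanning ribosome, had a shared 1.49-fold rhythm at ZT19.9 per the authors' deposited table. Pdcd4, an inhibitor of eIF4A, had 1.19-fold at ZT5.81 in EpiKO and 1.44-fold at ZT4.61 in WT, per the authors' deposited table. Paip2, which removes poly(A)-binding protein from initiation, had a 1.24-fold rhythm at ZT8.56 in WT only, and Pabpc1, that protein's main gene, a shared 1.19-fold rhythm at ZT9.40, per the authors' deposited table.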

How the data were processed

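Polyadenylated RNA of epidermis freed with dispase was sequenced as single reads of 51 bases from a stranded kit, per the labels' protocols. Tools listed in the submitters' processing notes, without order or settings, are edgeR, featureCounts 1.6.0, SAMtools 1.3.1, HISAT2 2.2.1 and Trimmomatic 0.36, with the build mm10. Per the series design text, rhythms in EpiKO and WT were compared with dryR. The authors deposited 1 table of that fit. Its model weights are deposited as values from 0 to 1, from the Bayesian information criterion per the file headers. Its mean levels are deposited as log2 values, and the sources used here do not give how libraries were scaled. Their sums on the linear scale differ between EpiKO and WT and are not those of CPM or TPM values. A deposited score, the amplitude relative to the mean, was not used. The side labelled other than WT was taken as EpiKO. For 5062 fitted EpiKO curves and 5914 fitted WT curves, the amplitude matched the full height from trough to peak computed from the cosine and sine coefficients, within 1e-06.

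Counts of members were set beside those over all 17721 genes, with no test. Symbols matched 17720 genes, and positions come from GENCODE M21 (mm10). Shared windows were counted over its transcripts on either strand, and 5% of windows was used as the limit. Members, gene lists and tests were chosen with earlier results of these data known. Named were all members assigned a rhythm, the 6 largest mean differences each way, paralogs, and up to 4 genes per related list by amplitude. Genes of related lists named for having no rhythm (Atf4, Mtor, Rptor, Larp1, Etf1, Gspt2) were chosen after their values were seen. The planned cosine fit across EpiKO libraries was not run because the table has no values per library. Class and window functions were tested on simulated data. Alternatives were other weight limits, a minimum amplitude, filters on low expression and shared windows, a minimum mean difference and centring. Python 3.11.15, NumPy 2.4.6, pandas 2.3.3 and matplotlib 3.10.9 were used.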

Additional observations from a re-analysis of the deposited data

How the results depend on the processing

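No paired analysis was possible because the table holds no values per library, and for the same reason no replicate could be left out. With no minimum weight, 2 members were in the EpiKO-only class. At a weight of at least 0.8, 12 members had the same rhythm, 1 a rhythm in WT only (Eif5a2) and 1 different rhythms (Eif4e3). With that limit the mean peak was 13.71 h after lights on in EpiKO and 13.67 h in WT (14.2 h in EpiKO and 14.19 h in WT at 0.5), and the median fold in WT was 1.19. Members with the same rhythm enter the values of both genotypes with the same curve. The closeness of the genotypes is therefore largely set by the model. The mean peaks lie between the early and late peak groups. With a minimum height of 0.25 (log2), 8 members had the same rhythm, 1 a rhythm in WT only and 30 none. Shares over all genes were not computed at this height or at a weight of 0.8. Whether the share of members with the same rhythm stays above that of all genes at these limits was therefore not tested. Without members with over 5% shared windows, 11 had no rhythm, 15 the same rhythm, 0 a rhythm in EpiKO only and 0 different rhythms. These were 15 of 30 members with the same rhythm, against 17.3% of the 12885 genes with at most 5% shared windows. Of the 20 members with over 5% shared, 4 had the same rhythm, against 15.1% of 4835 genes. By summed weights, an alternative added after seeing the data, 3.87 members were rhythmic in EpiKO only and 4.56 in WT only. Means differed by at least 0.5 (log2) upward in 3 members and downward in 9. Without members with over 5% shared windows, also added, 7 means were lower, and the early and late peak groups held 8 and 7 genes. The cause of these changes was not tested. Centring on the median of all genes, which is 0, changed no count, and centring on that of genes with different means (-0.14) gave 24 higher and 16 lower.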
